A study of Mus musculus with 12 samples.

Results

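The deubiquitinases USP1, USP12 and USP46 and their WD-repeat cofactors WDR48 and WDR20 were examined at the mRNA level in mouse hematopoietic stem and progenitor cells lacking the Fanconi anemia gene Fancg. The members are the 5 rows of the table named Usp1, Usp12, Usp46, Wdr48 and Wdr20, out of 35999 genes. They were chosen for their shared cofactors and for the action of USP1 on FANCD2, and picked partly on the small p-value of Usp46 in the comparison of KO with WT. The difference of Usp46 between the genotypes is therefore given as a description, with an estimate and its error and without a test.

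RNA was sequenced from LSK cells (bone marrow cells without lineage markers that carry Sca-1 and KIT, which include the hematopoietic stem cells and multipotent progenitors) of 12 mice, 1 library per mouse. There were 6 mice labelled WT and 6 labelled Fancg KO (Fancg-/-), numbered 2 to 7 in both groups. Age and strain of the mice are not given in the sources used here, and no treatment is named for these libraries. Each gene had 1 normalised value per library, called signal here and taken to be an estimated read number divided by a size factor.

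USP1 is a ubiquitin-specific protease that removes the single ubiquitin placed on FANCD2 and FANCI by the Fanconi core complex, of which FANCG is a subunit, and the single ubiquitin placed on the replication clamp PCNA. Its activity depends on WDR48, also called UAF1, a WD-repeat protein that also binds and activates the related proteases USP12 and USP46. WDR20 is a second WD-repeat protein that joins the USP12 and USP46 complexes and stimulates them further.

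The 3 proteases share a cysteine protease fold, and the stretch around the catalytic cysteine is shown because it tells how close the members are, in protein and in the letters that reads are assigned by. Below are 72 coding bases, or 24 codons, around cysteine 44 of Usp46 (coding positions 106 to 177), cysteine 48 of Usp12 (118 to 189) and cysteine 90 of Usp1 (244 to 315), read 5′ to 3′ on the coding strand from GENCODE transcripts of GRCm38. Capitals mark bases that differ between Usp46 and Usp12, and in Usp1 the bases that differ from Usp46.
Usp46: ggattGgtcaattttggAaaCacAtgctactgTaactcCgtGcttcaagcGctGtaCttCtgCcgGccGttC
Usp12: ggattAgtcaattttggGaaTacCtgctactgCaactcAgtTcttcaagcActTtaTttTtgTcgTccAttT
Usp1: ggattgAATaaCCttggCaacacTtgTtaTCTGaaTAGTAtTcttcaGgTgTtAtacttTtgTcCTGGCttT
Usp46 and Usp12 encode the same 24 residues here, and all 15 bases that differ lie at the third position of a codon. Usp1 differs from Usp46 at 30 bases and at 7 residues of this stretch. Over the whole protein, 323 of 366 aligned residues were identical between Usp12 (370 residues) and Usp46 (366 residues), or 88.3%, whereas Usp1 (784 residues) was 34.3% identical to Usp12 and 35.0% to Usp46 over the aligned residues. The longest run of bases shared by the Usp12 and Usp46 transcripts was 20, and no stretch of 31 bases was shared by any pair of the 5 members, so that the paralogs can be told apart at that length.

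The genes lie apart from each other. In GRCm38 Usp1 (ENSMUSG00000028560.11) is at chr4:98923810-98935543 on the plus strand, Usp12 (ENSMUSG00000029640.17) at chr5:146734809-146795006 on the minus strand, and Usp46 (ENSMUSG00000054814.14) at chr5:73998453-74068431 on the minus strand. Wdr48 (ENSMUSG00000032512.7) is at chr9:119894878-119926587 and Wdr20 (ENSMUSG00000037957.14) at chr12:110737944-110804238, both on the plus strand. Some of their transcripts overlap or resemble other genes. Of the 31-base stretches of Usp1, 31.3% also occur in the processed pseudogene Gm5841, whose own signal stayed between 0 and 3.12 in the 12 libraries. Wdr48 shares 14.4% of its stretches with Gorasp1, a Golgi stacking protein gene that overlaps it on the opposite strand, and Wdr20 shares 11.0% with its retrotransposed copy Wdr20rt. Usp46 shares 3.30% with Usp46os2 on the opposite strand (not analysed here), and Usp12 shares 4.90% with the pseudogene Gm8902, listed at 0 in every library. Whether strand was used in quantification is not stated, so the signal of overlapping genes could not be assigned with certainty.

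The libraries were shallow. Their total signal was 1603581 to 2672915 in WT and 1576081 to 2246687 in KO, or roughly 1235110 to 2471413 reads. This read number is approximate, because it rests on the step on which low values lie and only 10.1% to 11.0% of the values above 0 were whole multiples of it (within 1e-04 of a step). The single gene Lars2 made up 15.6% to 36.2% of the signal of a library in WT and 17.0% to 35.1% in KO. The signal left for all other genes is smaller by that share, and a rescaling without Lars2 is among the alternatives. Fancg itself had a signal of 10.3 ± 6.96 (SD, n = 6) in WT and 8.53 ± 4.18 (SD, n = 6) in KO and did not separate the labels (log2 fold change -0.20, two-sided exact permutation test, p = 0.636), so WT and KO stand for the labels of the libraries throughout. The replicate 3 libraries went against their labels in Gm18853, a gene singled out after its values were seen. Its signal was 19.2 in WT replicate 3 against at most 0.0304 in the other WT libraries, and 1.84e-05 in KO replicate 3 whereas the other KO libraries had 15.1 to 70.9. The summed signal of Y-linked genes was 26.6 in WT replicate 3 and 49.7 in KO replicate 7, while it was 189 to 435 elsewhere, and these are called the Y-low libraries. The values of the members and gene lists without these libraries are given with them.

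The LSK identity of the cells was checked on marker genes. The summed signal of 10 LSK markers ran from 1725 to 2246 in WT and from 1408 to 2117 in KO, with Cd34, Flt3, Kit and Meis1 the highest. Ly6a, the gene of Sca-1, was low, at 6.15 to 17.4 in WT and 4.84 to 16.1 in KO. Procr, with means of 4.90 in WT and 6.71 in KO, was too low to be tested. The sums of B cell markers (38.2 to 198 in WT, 53.8 to 299 in KO) and of granulocyte and monocyte markers (41.4 to 308 in WT, 56.7 to 335 in KO) overlapped between the groups, with the neutrophil marker Ly6g at 0 in every library. Erythroid markers summed to at most 31.1, megakaryocyte markers to at most 35.2, stromal markers to at most 2.12 and T cell markers to at most 1.06, with Trac at 0 in every library. Of the 9 LSK markers tested, only the cytokine receptor gene Flt3 was past an unadjusted p of 0.05 with a log2 fold change beyond 0.5 (489 ± 95.5 in WT, 358 ± 127 in KO, SD, n = 6, log2 fold change -0.51, limma adjusted p = 0.9996), and it stayed past both in 4 of the 12 fits with 1 library left out (without WT replicate 6 or KO replicate 2, 3 or 4). Its log2 fold change was -0.65 without both replicate 3 libraries, still past both, and -0.47 without the Y-low libraries, no longer past both. The stem cell marker Slamf1 had the highest fold change of the list, at 0.69 (limma adjusted p = 0.9996). Whether the make-up of the LSK fraction has a part in the differences given for the members was not tested, and in bulk RNA fewer cells of a type and less RNA per cell cannot be told apart.

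**Figure D1:**
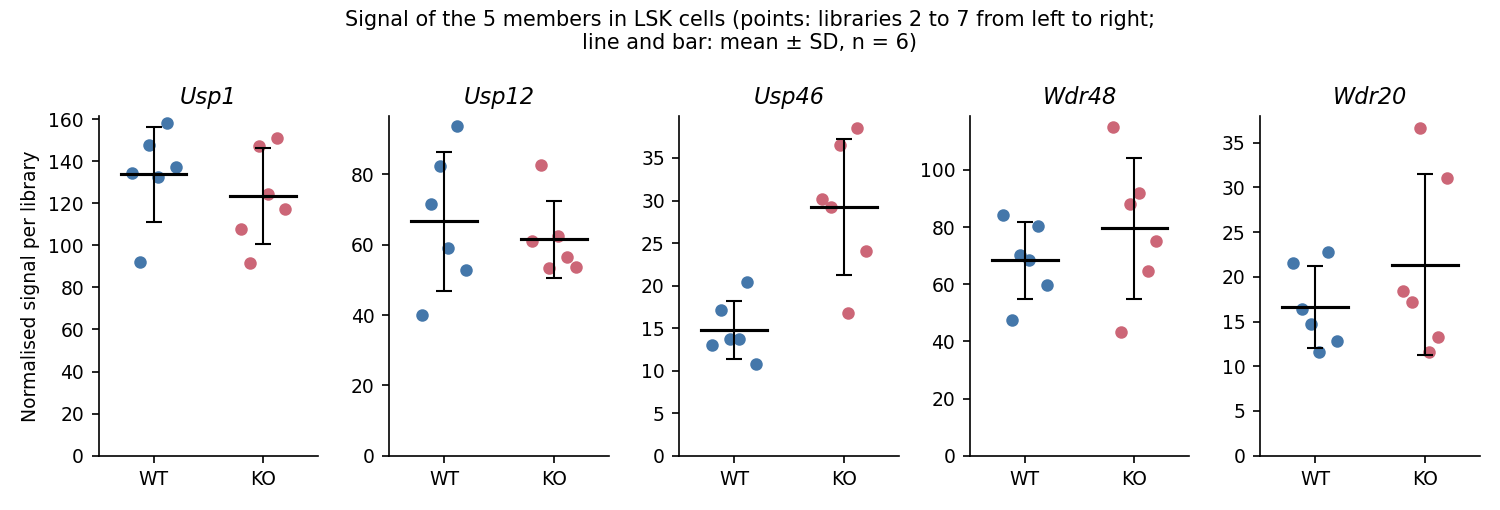
Signal of the 5 members in each of the 12 libraries, with 1 panel per gene, WT in blue and KO in red, replicates 2 to 7 from left to right, and the mean ± SD (n = 6) as a line and bar. For Usp46, 5 of 6 KO points lie above all WT points, while the groups lie over each other for Usp1, Usp12, Wdr48 and Wdr20.

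To ask whether the FANCD2 deubiquitinase is expressed differently without Fancg, Usp1 was compared first. Its signal ran from 92.2 through a median of 136 to 158 in WT, and from 91.6 through a median of 121 to 151 in KO. The ranges almost coincided, and the lowest library of each group was the one numbered 3. The mean was 134 ± 22.5 in WT and 123 ± 22.9 in KO (SD, n = 6). The log2 fold change of KO against WT, on the scale of log2(signal + 1) on which the change of low genes is understated, was -0.12 ± 0.16 (SE, 95% confidence interval -0.46 to 0.23, limma adjusted p = 0.9996 over the 8887 genes whose signal averaged 10 or more, two-sided exact permutation test, p = 0.459). A difference was thus not detected, and the interval reaches from a decrease of 0.46 to an increase of 0.23 on the log2 scale. Leaving out both replicate 3 libraries gave -0.14, and leaving out WT replicate 3 and KO replicate 7 gave -0.21 (limma adjusted p = 0.999 and 0.969). With 1 library left out it ran from -0.04 (without KO replicate 3) and -0.07 (without WT replicate 6) to -0.22 (without WT replicate 3).

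WDR48 is the activator that all 3 proteases share. The signal of Wdr48 ran from 47.4 through a median of 69.4 to 84.1 in WT, and from 43.3 through a median of 81.5 to 115 in KO. The lowest values of both groups again belonged to the replicate 3 libraries, and 3 KO libraries lay above the highest WT library. The means, 68.4 ± 13.5 in WT and 79.7 ± 24.7 in KO (SD, n = 6), did not differ beyond the spread between mice (log2 fold change 0.18 ± 0.22, SE, 95% confidence interval -0.28 to 0.64, limma adjusted p = 0.9996, exact permutation test, p = 0.452). This value moved by more than 1.5 times with single libraries. It was 0.06 without KO replicate 2, 0.34 without KO replicate 3, 0.24 without both replicate 3 libraries and 0.08 without the Y-low libraries. Gorasp1, which overlaps Wdr48, had a signal of only 2.51 ± 0.88 in WT and 0.98 ± 0.25 in KO (SD, n = 6), under the filter. Its groups did not overlap (1.31 to 3.42 in WT, 0.57 to 1.26 in KO, two-sided exact permutation test, unadjusted p = 0.00216). Whether this bears on the signal of Wdr48 was not tested. Cx3cr1, a chemokine receptor gene that also overlaps Wdr48, had 10.7 ± 3.03 in WT and 14.7 ± 6.74 in KO (SD, n = 6).

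Usp12 was expressed in all 12 libraries. Its signal ran from 40.0 through a median of 65.4 to 93.8 in WT, and from 53.3 through a median of 58.8 to 82.6 in KO. All KO libraries lay within the range of the WT libraries, and KO replicate 3 at 82.6 stood apart from the other 5 KO libraries, which lay between 53.3 and 62.4. The mean was 66.7 ± 19.8 in WT and 61.6 ± 11.0 in KO (SD, n = 6), with a log2 fold change of -0.07 ± 0.20 (SE, 95% confidence interval -0.50 to 0.35, limma adjusted p = 0.9996, exact permutation test, p = 0.732). The sign of this small value was not stable. It was 0.03 without WT replicate 6, -0.21 without WT replicate 2, -0.13 without both replicate 3 libraries and -0.01 without the Y-low libraries.

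Usp46, the close paralog of Usp12, was the member with the largest fold change, and it was chosen in part for that difference. In the WT libraries numbered 2 to 7 its signal was 13.0, 17.2, 13.7, 13.7, 20.4 and 10.8. In the KO libraries of the same numbers it was 30.2, 29.3, 36.5, 16.8, 38.5 and 24.1. The groups overlapped through KO replicate 5 alone, which at 16.8 lay below WT replicates 3 and 6, and the other 5 KO libraries lay above every WT library. The mean signal was 14.8 ± 3.43 in WT and 29.2 ± 8.03 in KO (SD, n = 6), a ratio of 1.98, and the WT mean alone was above the filter of 10. On the log2 scale the estimate was 0.92 ± 0.23 (SE). Picking a gene partly for its small p tends to enlarge its estimate, and fits on most of the same libraries share this. The estimate was 0.95 without both replicate 3 libraries and 1.01 without the Y-low libraries. With 1 library left out it ran from 0.83 (without KO replicate 6) to 1.06 (without KO replicate 5). These values correspond to roughly 9.99 to 20.2 reads per WT library and 15.0 to 46.7 reads per KO library.

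The choice of members used this contrast, so Usp46 is not counted among the genes called. Among all 8887 genes tested, 2.62% had a log2 fold change beyond 0.5, whichever the direction, with an unadjusted p under 0.05, and 1.38% were past both on the side of higher signal in KO. The other 4 members were in neither group. No gene reached an adjusted p of 0.05 with limma (0% of the genes tested), while 326 genes had an unadjusted p under 0.05. The libraries of the groups did not overlap for 0.0900% of the genes tested, and for 0 of the 5 members.

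WDR20 binds USP12 and USP46 but not USP1. The signal of Wdr20 ran from 11.6 through a median of 15.6 to 22.8 in WT, and from 11.6 through a median of 17.8 to 36.7 in KO. KO replicates 4 and 7, at 36.7 and 31.1, lay above every WT library, and the other 4 KO libraries lay within the WT range. The mean was 16.6 ± 4.60 in WT and 21.4 ± 10.2 in KO (SD, n = 6), with a log2 fold change of 0.27 ± 0.29 (SE, 95% confidence interval -0.34 to 0.88, limma adjusted p = 0.9996, exact permutation test, p = 0.392). Without KO replicate 4 it was 0.09, without KO replicate 5 it was 0.41, without both replicate 3 libraries 0.31, and without the Y-low libraries 0.14. Of the genes related to Wdr20, the retrotransposed copy Wdr20rt had a mean signal of 3.95 in WT and 3.68 in KO and was under the filter. Dmwd, which encodes a WD-repeat protein of the same family, had 16.5 ± 8.25 in WT and 22.8 ± 5.62 in KO (SD, n = 6, log2 fold change 0.55, 95% confidence interval -0.06 to 1.16, limma adjusted p = 0.9996).

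**Figure D2:**
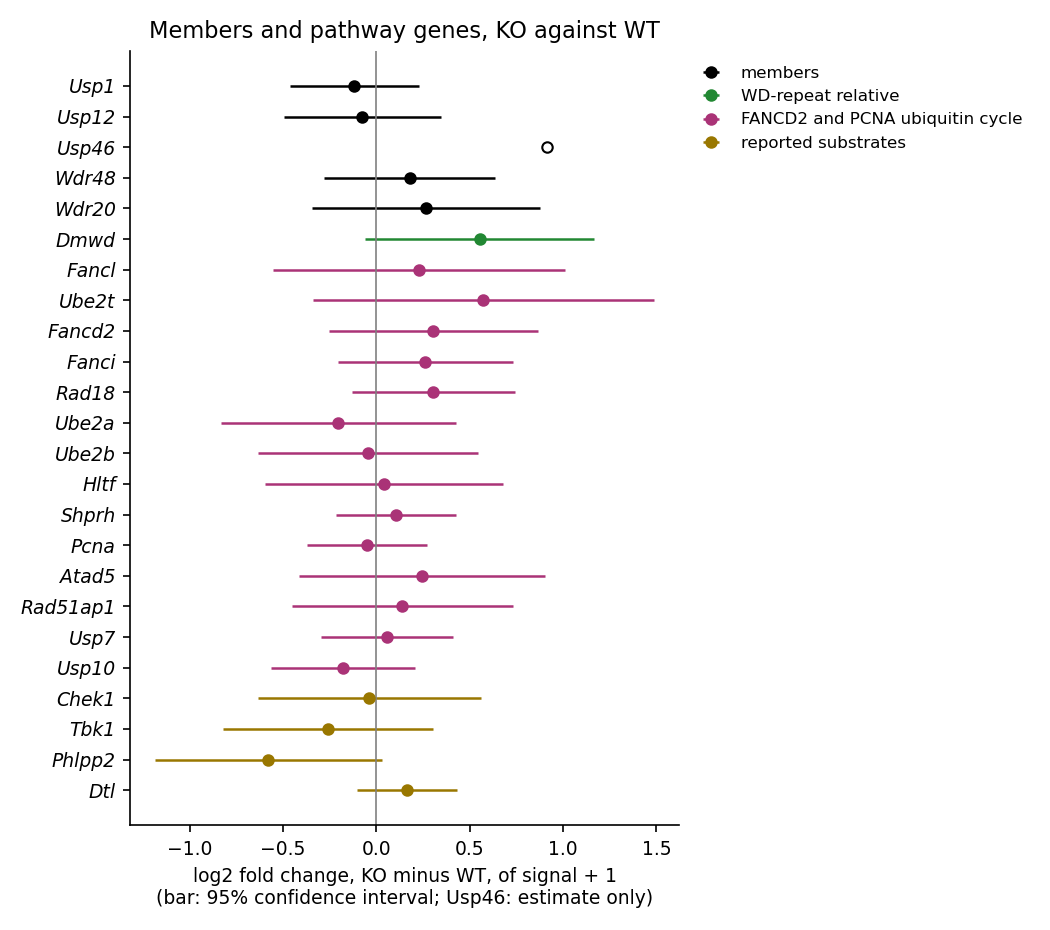
log2 fold change of KO against WT on log2(signal + 1), with 95% confidence intervals from limma as bars (Usp46 as an open point, estimate only), for the 5 members, Dmwd, the 14 genes of the FANCD2 and PCNA ubiquitin cycle and the 4 reported substrates that were tested. The intervals of the other 4 members reach from -0.50 to 0.88 at the widest and include 0, as do those of the pathway genes shown.

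To set the members beside the rest of the pathway, 14 genes that place ubiquitin on FANCD2, FANCI and PCNA, carry it, or act with USP1 in its removal were followed, and all 14 passed the filter. None was past the thresholds in either direction, and all had a limma adjusted p of 0.9996. Of the 14 log2 fold changes 10 were positive and 4 negative, with a median of 0.12, against a median of 0.00315 and 50.7% positive values over all genes tested. The list median was 0.03 without KO replicate 4, 0.07 without WT replicate 6, 0.18 without KO replicate 3, 0.19 without both replicate 3 libraries and 0.11 without the Y-low libraries. The targets of USP1 had log2 fold changes of 0.31 for Fancd2 (9.59 ± 3.47 in WT, 11.7 ± 2.09 in KO), 0.26 for Fanci (17.9 ± 5.55 in WT, 21.3 ± 4.86 in KO) and -0.05 for Pcna (174 ± 28.2 in WT, 168 ± 27.0 in KO), with signals as mean ± SD and n = 6. The highest value of the list was 0.57 for Ube2t, the ubiquitin-conjugating enzyme that works with the ligase FANCL. Its KO mean of 26.5 ± 22.1 (SD, n = 6), against 16.1 ± 8.52 in WT, rested on KO replicate 7, at 70.3. The lowest was -0.20 for Ube2a, an enzyme that works with RAD18 on PCNA (21.5 ± 7.37 in WT, 17.8 ± 5.03 in KO). Atad5, whose product brings USP1 and WDR48 to PCNA, had a log2 fold change of 0.24, with 1 KO library at 554 and the other 11 libraries between 107 and 221.

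Among 11 genes reported as substrates of the members other than FANCD2, FANCI and PCNA, 4 passed the filter and none was past the thresholds. Phlpp2, of the PHLPP family of AKT phosphatases, had the lowest value, with a signal of 37.7 ± 10.2 in WT and 26.1 ± 9.80 in KO (SD, n = 6, log2 fold change -0.58, 95% confidence interval -1.18 to 0.03, limma adjusted p = 0.9996). It passed both unadjusted thresholds, with lower signal in KO, when WT replicate 6 or KO replicate 2, 3 or 5 was left out, and with the replicate number as a block. Dtl, a substrate receptor of the CUL4 ubiquitin ligase, had the highest value, at 0.16. The kinase genes Chek1 and Tbk1 were at -0.04 and -0.26. The median over the 4 genes was -0.15, and it was -0.02 without both replicate 3 libraries, 0.00423 without KO replicate 3, -0.09 without WT replicate 6, -0.24 without KO replicate 5 or 7 and -0.26 without the Y-low libraries. USP1 is known as a gene whose expression follows the cell cycle, and 21 cell cycle genes were also followed. None was past the thresholds, 15 of the values were positive, the median was 0.09, and they ran from -0.21 for the transcription factor gene E2f1 to 0.44 for the mitotic kinase gene Plk1. The median of the cell cycle genes was -0.03 without the Y-low libraries and 0.14 without both replicate 3 libraries. With 1 library left out it was 0.02 without KO replicate 6 or 7, 0.04 without WT replicate 3, 0.05 without KO replicate 4 or 5, 0.14 without KO replicate 2, 0.18 without WT replicate 6 and 0.20 without KO replicate 3.

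**Figure D3:**
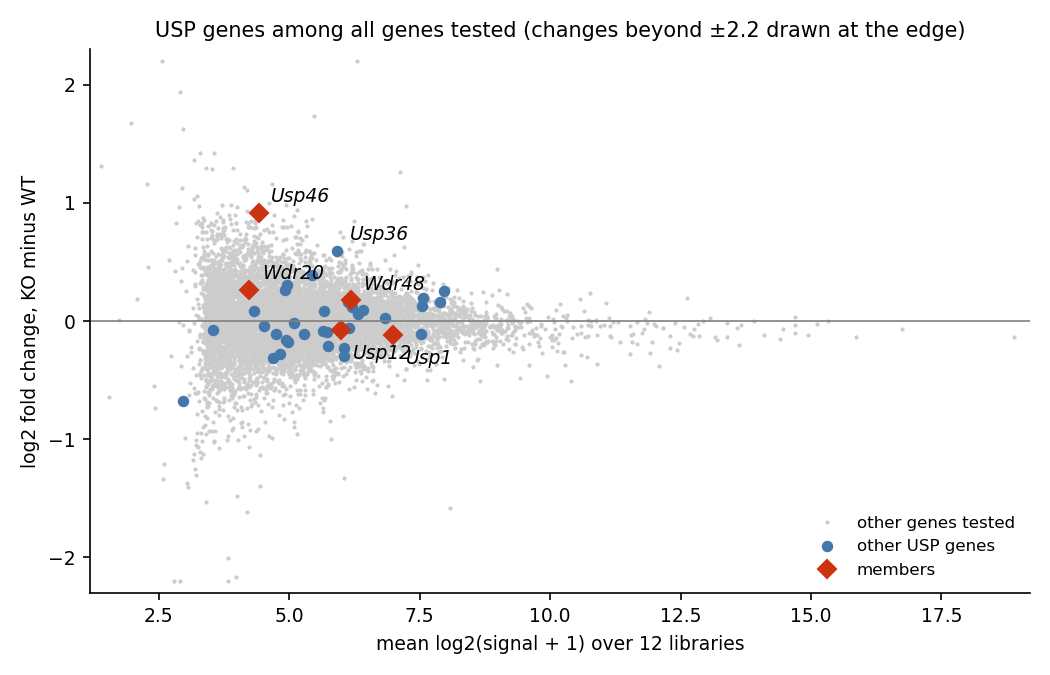
log2 fold change of KO against WT plotted over the mean log2(signal + 1) of the 12 libraries, for all 8887 genes tested (grey), the 32 other genes with a USP name tested (blue, Usp6nl included) and the 5 members (red). Usp46 at 0.92 and Usp36 at 0.59 lie highest among the USP genes tested, and the other members lie between -0.12 and 0.27. USP genes under the filter are not drawn.

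The USP family gave a further comparison. The list was taken by name and holds Usp6nl, which is no ubiquitin-specific protease. Of 53 other genes so named in the table, 32 passed the filter, with 15 positive and 17 negative log2 fold changes and a median of -0.03. Without Usp6nl, a change made after seeing the data, 31 genes had 15 positive and 16 negative values and a median of -0.02. The median of the 32 genes was 0.03 without both replicate 3 libraries and -0.02 without the Y-low libraries, and its sign turned with single libraries left out. Only Usp36, whose product is a nucleolar deubiquitinase, was past both thresholds, in the direction of higher signal in KO. This count of 1 of 32 is near the share of 2.62% over all genes tested, so it does not set the family apart. Its signal ran from 28.5 through a median of 53.5 to 70.7 in WT and from 43.0 through a median of 82.5 to 88.5 in KO. The groups overlapped, with 4 KO libraries above the highest WT library (50.3 ± 15.6 in WT, 75.2 ± 17.4 in KO, SD, n = 6, log2 fold change 0.59 ± 0.23, SE, limma adjusted p = 0.9996). Usp36 was no longer past both thresholds without WT replicate 2 (0.51), without WT replicate 6 (0.45) or after rescaling to equal totals without Lars2 (0.65). It was 0.72 without both replicate 3 libraries and 0.66 without the Y-low libraries. The lowest value of the family was -0.67 for Usp26, which in KO ran from 0 to 34.4.

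**Figure D4:**
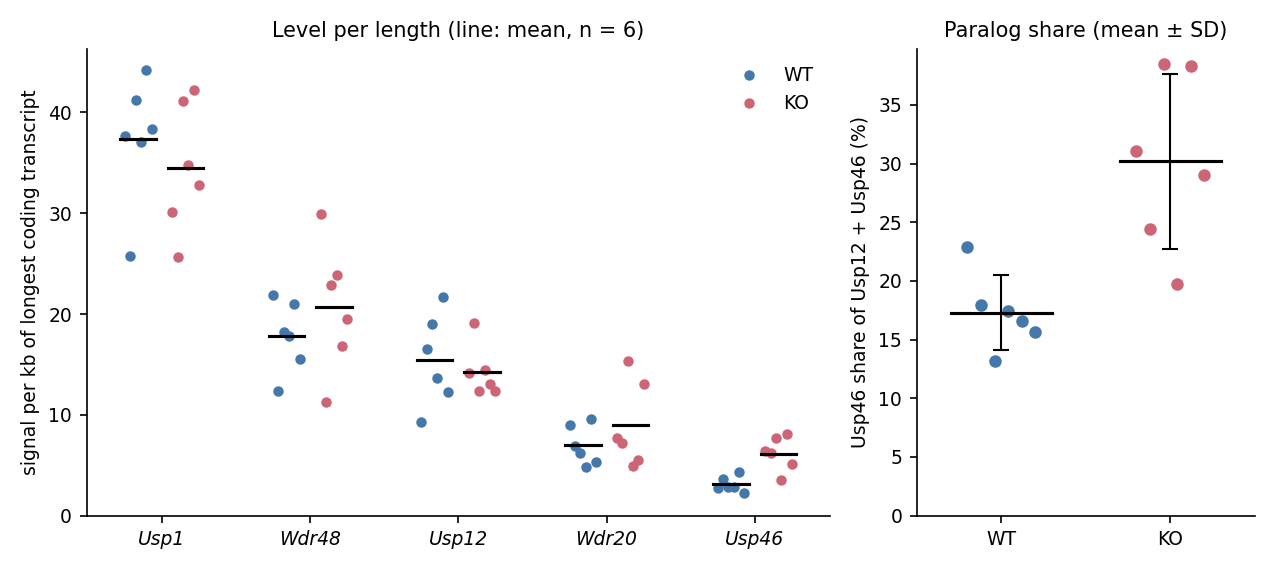
Left, signal per kb of the longest protein-coding transcript for the 5 members in each library (points) with the mean of each group (line, n = 6). Right, share of Usp46 in the summed per-kb signal of Usp12 and Usp46 in percent, with mean ± SD: 17.3% in WT and 30.2% in KO.

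Levels of different genes were compared per kb of the longest protein-coding transcript. In WT, Usp1 had the highest level of the members at 37.4 ± 6.28 signal per kb, followed by Wdr48 (17.8 ± 3.51), Usp12 (15.4 ± 4.58), Wdr20 (6.98 ± 1.93) and Usp46 (3.12 ± 0.72). In KO the order was the same, at 34.5 ± 6.40, 20.7 ± 6.42, 14.2 ± 2.53, 8.96 ± 4.26 and 6.17 ± 1.69 signal per kb (SD, n = 6). Over both groups, Usp1 ranked 1 among the 34 USP genes that passed the filter (Usp6nl left out), Usp12 ranked 13 and Usp46 ranked 29. In WT the libraries of Usp1 did not overlap those of Wdr48, nor those of Wdr20 those of Usp46. Wdr48 and Usp12 overlapped, as did Usp12 (9.25 to 21.7) and Wdr20 (4.85 to 9.55). In KO every neighbouring pair in the order overlapped, and the range of Usp46 there, 3.54 to 8.13, reached into that of Wdr20, 4.88 to 15.4. With the length of all exons of a gene, Usp12 at 14.4 per kb in WT stood above Wdr48 at 7.67, while Usp1 remained the highest at 35.8 and Usp46 the lowest at 1.89. By that length Usp1 ranked 1 of the 34 USP genes, Usp12 ranked 7 and Usp46 ranked 30.

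The balance between the paralogs that share both cofactors was described by the share of Usp46 in the summed per-kb level of Usp12 and Usp46. It was 17.3% ± 3.21 in WT, from 13.2% to 22.9%, and 30.2% ± 7.48 in KO, from 19.7% to 38.5% (SD, n = 6). The ranges overlapped, and since Usp46 was chosen by its own values, this share is a description too. With all exons as length it was 11.9% ± 2.37 in WT and 22.0% ± 6.06 in KO. Usp46 was the less abundant paralog per kb in every library of both genotypes.

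The spread between mice of the same genotype differed among the members. The SD of log2(signal + 1) within groups was 0.27 for Usp1, 0.35 for Usp12, 0.37 for Usp46, 0.40 for Wdr48 and 0.52 for Wdr20. Beside the genes whose mean lay within 0.25 log2 units, 43.0% of 461 genes had a smaller SD than Usp1, 53.3% of 885 a smaller SD than Usp12 and 24.3% of 1325 a smaller SD than Usp46. For Wdr48 the share was 69.0% of 811 genes and for Wdr20 58.4% of 1331. Usp46 was picked partly for its small p, which a small SD within groups favours, so its value here is a description only. The spread that counting alone gives was taken at the mean of the approximate read numbers. It was 0.13 for Usp1, 0.18 for Usp12 and 0.17 for Wdr48, beside the observed 0.27, 0.35 and 0.40. For Usp46 it was 0.30 beside 0.37, and for Wdr20 0.33 beside 0.52, so counting error was closest to the observed spread for Usp46.

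Across the 12 libraries, after the mean of each group was removed, the members moved together only weakly. Pearson's r between pairs of members ran from -0.31 for Usp12 with Wdr48 to 0.51 for Usp1 with Wdr48, and it was 0.40 for Usp46 with Wdr20. These values describe libraries that also share depth and normalization. Over the other 8886 genes, those most like Usp46 were Fam49a (r = 0.91, Spearman's rho = 0.89), Smim27 (r = 0.85, rho = 0.85) and Lbp (r = 0.85, rho = 0.87). Their own log2 fold changes of KO against WT were -0.26, -0.16 and 0.40. The genes most like Usp1 were Atxn10 (r = 0.92, rho = 0.93), Gm9531 (r = 0.91, rho = 0.73) and Anp32b (r = 0.91, rho = 0.76), with log2 fold changes of -0.13, 0.17 and 0.03. For both members these are the highest of 8886 correlations over 12 libraries, where high values can arise by chance, and no test was made.

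Nearby genes on the chromosomes were also read. Near Wdr20, the chaperone gene Hsp90aa1, 35215 bases away, had 298 ± 80.4 in WT and 307 ± 78.1 in KO, and Mok, 3559 bases away, had 1.65 ± 2.22 in WT and 2.07 ± 2.34 in KO (SD, n = 6). The antisense transcripts Usp46os1 and Usp46os2, which overlap Usp46, were not analysed here, so the signal at Usp46 could not be set beside theirs.

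**Figure D5:**
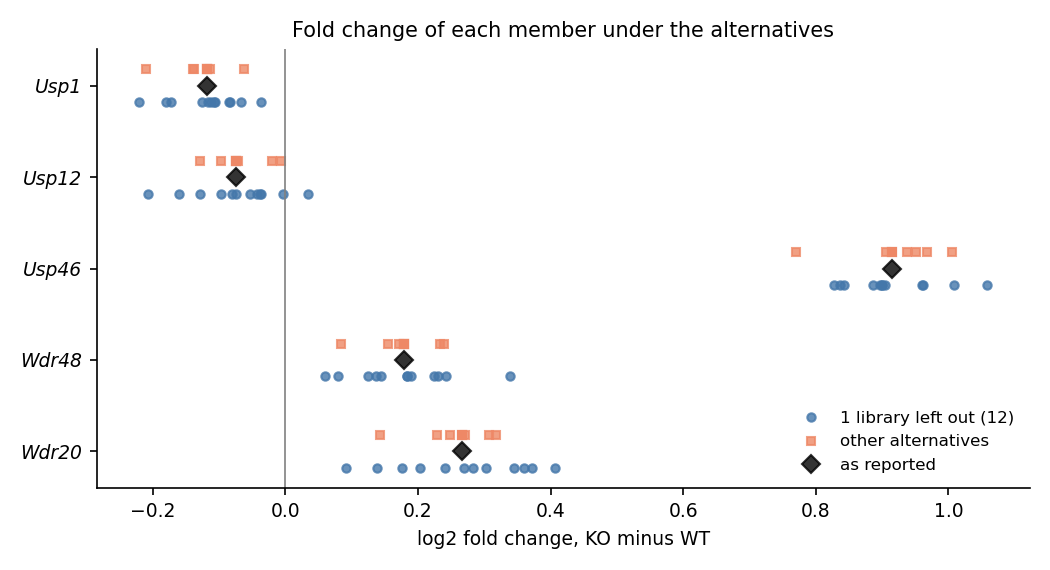
log2 fold change of each member as reported (black), with each of the 12 libraries left out in turn (blue) and under the other alternatives (orange). Usp46, picked partly for this difference, stays between 0.77 and 1.06. Usp1, Wdr48 and Wdr20 keep their sign, and Usp12 reaches 0.03 without WT replicate 6.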

How the data were processed

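LSK cells were sorted after lineage depletion, and mRNA was made into libraries with the CATS RNA-seq chemistry. The authors deposited 1 signal value for each gene in each library, and the table's name and values point to estimated counts divided by a size factor. Kallisto is named in the submitters' processing notes. Its version, the mouse build and the annotation are not given in the sources used here, and the study's methods describe Kallisto with a human genome and Sleuth without saying if mouse libraries are meant. Members and gene lists were chosen with earlier results of these data known.

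Genes whose signal averaged 10 or more (8887 of 35999, all 5 members among them) were fitted on log2(signal + 1) without rescaling with limma 3.58.1 in R 4.3.3 (moderated by empirical Bayes with a trend, two-sided, p adjusted by Benjamini-Hochberg). For single genes an exact permutation test over libraries was added, whose smallest p is 0.00216. The p-values set a difference against the spread between libraries of a group, 1 per mouse, which also holds counting error. No test for counts was run, because the values did not resolve into whole reads. For Usp46 only the estimate and its error are given. Genes past the thresholds had an unadjusted p under 0.05 and a log2 fold change beyond 0.5.

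Named genes were the 5 members, genes of the pathway lists and the USP family past the thresholds, the highest and lowest of each list, the 3 genes most like Usp46 and the 3 most like Usp1, and overlapping or nearest genes, not all of which are reported here. Other targets of USP1 and cofactors were named for their role after values were seen. Of the gene names, 35929 were found in GENCODE M21 (GRCm38), from which lengths, positions and sequences come (Python 3.11.15, Biopython 1.88). That annotation may not be the one used for quantification. Alternatives were other pseudocounts, filters, scalings, limma without trend, the replicate block and libraries left out. The fits without both replicate 3 libraries and without Usp6nl were added after seeing the data.

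After group means were removed, same-numbered libraries deviated together in part (r from 0.09 to 0.36, mean 0.20). The mean r of different-numbered libraries was -0.04. Removing the group means largely sets this value once the same-numbered mean is known, so it is no independent baseline. What the shared numbers stand for is not given in the sources used here, so the main fit did not take them as pairs. A shared source or batch behind the numbers is thus left out of that fit, and a fit with the number as a block is given below.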

Additional observations from a re-analysis of the deposited data

Results flagged for a closer look

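In 7 of 58 groups of 6 libraries checked (the members, their relatives and overlapping genes, the tested pathway genes, Usp36 and Flt3, in WT and KO), 1 library lay far from the other 5 by Dixon's test at its 95% critical value. Chance gives this in about 1 of 20 groups when values are normally distributed and groups are independent. The test was run on the signal without log2, and the groups share libraries, so the number flagged cannot be weighed against that rate. In KO replicate 3, Usp12 was at 82.6 (others 53.3 to 62.4), and in KO replicate 2, Dmwd was at 33.8 (others 19.0 to 23.7). Among genes of the ubiquitin cycle, Fancl was 31.9 in WT replicate 2 (others 12.1 to 18.7) and Ube2a was 7.51 in WT replicate 3 (no other below 21.4). Ube2t was 70.3 in KO replicate 7 (others 10.5 to 26.0), and Fanci was 30.9 in the same library (others 16.9 to 20.8). Atad5 was 554 in KO replicate 4 (others 107 to 221). The cause was not tested for any of these.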

How the results depend on the processing

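Usp1, Usp12, Wdr48 and Wdr20 reached an adjusted p of 0.05 under no alternative run. Usp1, Wdr48 and Wdr20 kept their direction in every alternative run. Usp12 turned from -0.07 to 0.034 without WT replicate 6, with a range of -0.21 to 0.034 over single libraries left out. Usp46 was between 0.77 (pseudocount 5) and 1.06, and both Usp46 and Wdr20 fell under the filter at a mean signal of at least 50. Genes past the thresholds numbered 233 as reported, 658 without a filter (21536 genes tested), 37 at a mean signal of at least 50 (3119 genes tested) and 124 after rescaling to equal totals without Lars2. That rescaling raised the share higher in KO from 52.8% to 69.4% and the median of all genes to 0.06. Leaving out 1 library gave 206 to 278. The USP family median, -0.03 as reported, was 0.070 at a mean signal of at least 50 (18 genes) and ran from -0.037 to 0.038 (without KO replicate 3) over libraries left out. The median of reported substrates was 0.16 at that filter, where 1 gene was left, and ran from -0.24 to 0.00423 over libraries left out. Without both replicate 3 libraries, chosen after seeing the data, 1 gene (Gm18853) had an adjusted p under 0.05. It is the gene in which these libraries went against their labels, so leaving them out separates it by construction, and the call is no independent result. The causes were not tested.

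With the replicate block, 286 genes were past the thresholds and none had an adjusted p under 0.05. The limma adjusted p was 0.951 for Usp1, 0.987 for Usp12, 0.943 for Wdr48 and 0.963 for Wdr20, and Phlpp2 passed the unadjusted thresholds in the direction of lower signal in KO. Same-numbered libraries had a mean r of 0.20, and 9 of 12 libraries correlated best with their own number. At 9.99 to 46.7 reads per library for Usp46 and 11.7 to 47.0 for Wdr20, counting error is part of each value, and small differences were not detectable at this depth.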
